A study of Mus musculus with 10 samples.

Results

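Prostaglandins are lipid mediators made from arachidonic acid, and the data below follow 10 genes that make prostaglandin E2 and its relatives, break them down or receive them, in colon tumours of mice with and without Ucp2. The genes were taken by name for their known role in colon tumours (Pla2g4a, Ptgs1, Ptgs2, Ptges, Ptges2, Ptgis, Hpgd, Ptger2, Ptger3 and Ptger4), and all 10 were found among the 23112 genes tested. Tumours came from C57BL6/J mice, 5 of genotype Ucp2+/+ (WT) and 5 of genotype Ucp2-/- (KO), and both groups had been taken through the AOM/DSS protocol and were killed at week 15. This protocol joins azoxymethane, a carcinogen, with dextran sodium sulphate, which injures the colon and inflames it. Each tumour sample was hybridised to 1 Affymetrix array, and the labels number WT replicates 1 to 5 and KO replicates 6 to 10. The labels give neither sex nor age, nor whether each sample came from another mouse, and every p-value below therefore rests on the spread among these 10 samples alone.

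Phospholipase A2 frees arachidonic acid from membranes, and the cyclooxygenases COX-1 (Ptgs1) and COX-2 (Ptgs2) turn it into prostaglandin H2. Terminal synthases then form prostaglandin E2 or prostacyclin, the dehydrogenase encoded by Hpgd inactivates prostaglandin E2, and the receptors EP1 to EP4 carry the signal into cells. In the colon COX-1 is made steadily, whereas COX-2 is induced in inflamed tissue and in adenomas, where Hpgd is often reduced, and COX inhibitors lower the number of tumours in patients and mice.

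The Ptgs2 result turned on a gene that is induced, so the RefSeq promoter windows of both cyclooxygenase genes and of Hpgd, the gene for the opposing enzyme, are shown. Each window holds the 250 bases before and the 50 bases after the annotated start in GRCm38.p6, read 5′ to 3′ on the strand of the gene. Capitals mark every match to 1 of 4 motifs searched on both strands, namely the C/EBP palindrome TTGCGCAA, the cAMP response element half-site TGACG, the E-box CACGTG and the TATA box TATAAA.
Ptgs2 at chr1:150099781-150100080, plus strand: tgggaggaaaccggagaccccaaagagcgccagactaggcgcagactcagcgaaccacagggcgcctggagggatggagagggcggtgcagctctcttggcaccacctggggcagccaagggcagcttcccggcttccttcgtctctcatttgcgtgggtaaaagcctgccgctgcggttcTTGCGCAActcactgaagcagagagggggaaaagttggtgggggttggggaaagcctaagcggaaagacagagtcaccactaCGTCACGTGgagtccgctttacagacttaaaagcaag
Ptgs1 at chr2:36230176-36230475, plus strand: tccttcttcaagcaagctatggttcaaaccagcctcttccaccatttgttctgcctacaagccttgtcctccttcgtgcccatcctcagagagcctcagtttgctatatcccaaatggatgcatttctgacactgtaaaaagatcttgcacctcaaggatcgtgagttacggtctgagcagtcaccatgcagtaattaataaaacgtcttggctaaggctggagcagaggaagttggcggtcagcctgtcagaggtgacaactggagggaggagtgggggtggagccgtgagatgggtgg
Hpgd at chr8:56294302-56294601, plus strand: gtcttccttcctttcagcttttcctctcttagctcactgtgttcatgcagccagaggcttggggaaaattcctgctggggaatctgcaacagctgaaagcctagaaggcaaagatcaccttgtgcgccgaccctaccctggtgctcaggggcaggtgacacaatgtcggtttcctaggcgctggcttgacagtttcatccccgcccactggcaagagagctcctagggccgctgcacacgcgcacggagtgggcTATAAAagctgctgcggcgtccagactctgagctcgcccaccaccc

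The Ptgs2 window held the C/EBP palindrome at bases -69 to -62 from the start, a match found in 0.183% of 32851 windows of the same length. It also held a half-site on the opposite strand at bases 14 to 18 after the start, overlapping an E-box at bases 17 to 22. These motifs occurred in 20.8% and 7.15% of the same 32851 windows, which did not cover every chromosome. The Ptgs1 window held none of the 4 motifs, and that of Hpgd held a TATA box at bases 5 to 10, a motif in 13.6% of windows. RefSeq gave a window for 9 of the 10 genes. The palindrome and the half-site were each found in 1 of these 9, and the E-box and the TATA box each in 2. A match describes letters only.

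The labels were checked on the targeted gene and on the tissue. The probe set whose ID carries the gene number of Ucp2 had a log2 signal of 10.84 to 11.55 in WT and 9.73 to 9.97 in KO arrays, and it is not given whether its probes lie in the deleted part. All 9 measured markers of colon epithelium lay above 5.14, a guide to background set where 95% of 1088 olfactory receptor genes have a lower mean signal. Keratin 8 (Krt8, mean log2 signal 11.72) and galectin 4 (Lgals4, 11.77) were among them. Correlations between arrays over all genes lay between 0.964 and 0.993. WT replicate 5 stood apart, at 48.2 on a first principal component that held 33.8% of the variance and on which the other 9 arrays lay between -33.2 and 9.23, so results are also given without it where it matters.

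Of the 10 genes, Ptgs2 showed the widest gap between genotypes, with a mean log2 signal of 9.54 ± 0.56 (SD, n = 5) in WT and 8.41 ± 0.81 in KO tumours. This is a 2.18-fold lower mean in KO. The other 9 genes had differences between -0.08 and 0.15, none of them past an unadjusted limma p of 0.05. By limma with Benjamini-Hochberg adjustment over all genes tested, 0 of the 10 were called at adjusted p under 0.05, where 0% of all genes were called. At unadjusted limma p under 0.05, 1 of the 10 (Ptgs2) was lower in KO, against 2.55% of all genes, and 0 were higher, against 2.22%. Ptgs2 passed this p together with a difference of at least 1.5-fold, as did 0.0952% of all genes lower and 0.368% higher in KO. The 10 genes were chosen with earlier results of these data known, so these shares are no independent support. By an exact permutation test of each gene, 0 of the 10 had an unadjusted p under 0.05. In 0 of the 10 did the arrays of the genotypes fall apart without overlap, a pattern seen in 0.835% of all genes. The median difference over the 10 was 0.02, and over all genes -0.02.

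**Figure D1:**
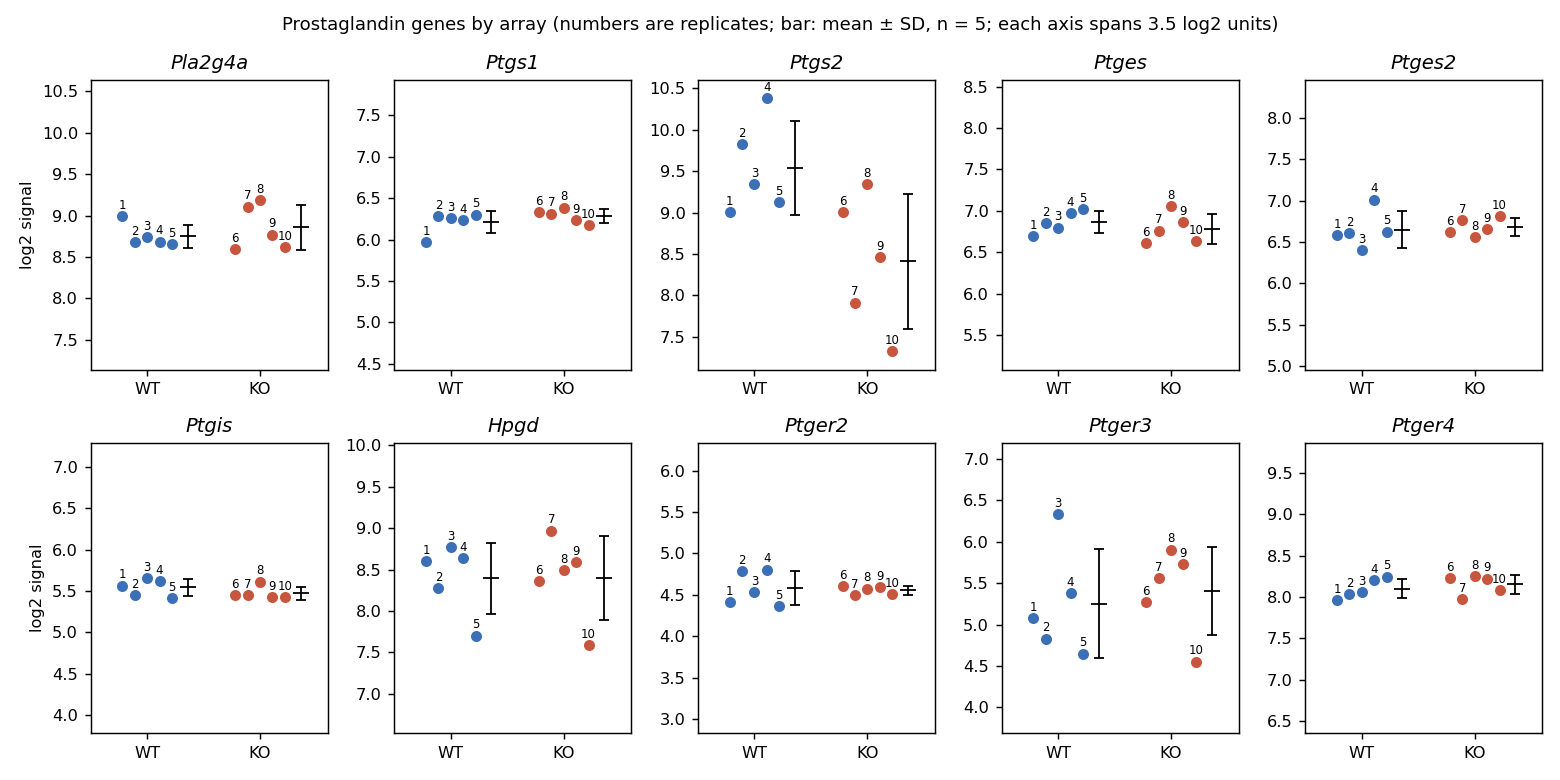
Log2 signal of the 10 prostaglandin genes in each array, in 1 panel per gene, with WT replicates 1 to 5 and KO replicates 6 to 10 as numbered points and the mean ± SD of each genotype as a bar. Each vertical axis spans the same range. KO replicates 7, 9 and 10 lie below all WT arrays for Ptgs2, and the genotypes overlap in each panel.

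The first step of the pathway is the release of arachidonic acid. Pla2g4a encodes cytosolic phospholipase A2, the enzyme that supplies it on stimulation, and is the next protein-coding gene to Ptgs2 on chromosome 1. Its log2 signal was 8.99, 8.68, 8.74, 8.69 and 8.66 in WT replicates 1 to 5 and 8.60, 9.11, 9.18, 8.77 and 8.62 in KO replicates 6 to 10. KO replicates 7 and 8 were above every WT array and KO replicates 6 and 10 below every one, so the genotypes overlapped. The difference of 0.11 ± 0.13 (SE) was smaller than its error (exact permutation p = 0.444, limma adjusted p = 0.931). Between tumours of a genotype, Pla2g4a and Ptgs2 showed r = 0.09 and rho = 0.13 over 10 arrays (exact permutation p = 0.83 and 0.761, adjusted 0.91 and 0.898), and r was -0.20 without WT replicate 4 and KO replicate 10, the arrays farthest from the median of Ptgs2.

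The cyclooxygenases are the step at which prostaglandin synthesis is set. Ptgs2 had log2 signals of 9.01, 9.82, 9.34, 10.38 and 9.13 in WT replicates 1 to 5. In KO replicates 6 to 10 the signals were 9.01, 7.91, 9.35, 8.47 and 7.33. Thus 3 of the 5 KO tumours lay below the lowest WT tumour, while KO replicates 6 and 8 lay within the WT range. The difference was -1.12 ± 0.38 (SE), with a 95% interval of -1.97 to -0.28 (limma adjusted p = 0.91). The exact permutation p was 0.0556, while the unadjusted limma p, which borrows spread from all genes, was under 0.05 and ranked 274 among all genes. With each array left out in turn the difference lay between -1.36 and -0.85, and it was -1.23 without WT replicate 5.

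Ptgs1, found through its gene number because the platform annotation does not list its probe set, lay within a narrow band. Its signals were 5.97, 6.28, 6.26, 6.23 and 6.30 in WT and 6.33, 6.31, 6.39, 6.23 and 6.17 in KO arrays. WT replicate 1 was the lowest and the others overlapped, with a difference of 0.08 ± 0.08 (SE) and a 95% interval of -0.09 to 0.24 (exact permutation p = 0.357, limma adjusted p = 0.919). The Ptgs2 interval and the Ptgs1 interval did not overlap. The difference between them was not tested.

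Ptgs2 was also among the genes that vary most from tumour to tumour. Its SD within genotypes was 0.70, at the 98.3 percentile of all genes, against 0.11 for Ptgs1, at the 27.2 percentile. Ptger3 (0.60, 97.7 percentile) and Hpgd (0.47, 96.0 percentile) also varied widely, whereas Ptger4 (0.12) and Ptgis (0.09) hardly varied. The SE of the fit followed this spread, and the 95% interval lay within a 1.5-fold change either way for 8 of the 10 genes, the exceptions being Ptgs2 and Ptger3. The share of all genes with such an interval was not counted, so this count does not set the 10 genes apart. Among the 8, Ptger2 (mean 4.57) lay under the guide to background of 5.14, and Ptgis (mean 5.51) not far above it. Their spread and intervals are open to background. The Hpgd interval of -0.57 to 0.57 came close to the 1.5-fold limit of 0.585.

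**Figure D2:**
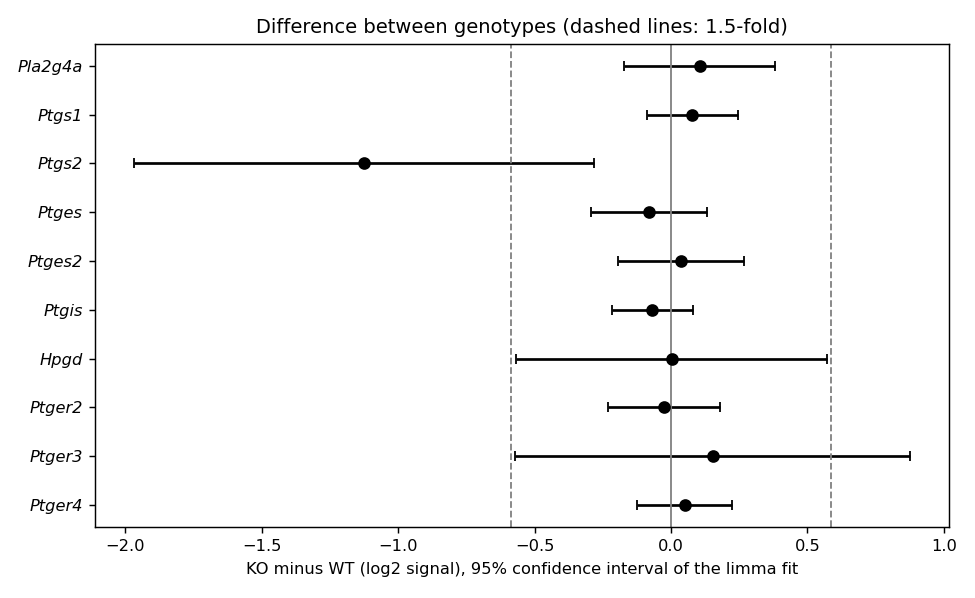
KO minus WT difference of log2 signal for the 10 genes, in the order of the pathway, with the 95% confidence interval of the limma fit over 5 arrays per genotype. Dashed lines mark a 1.5-fold change; the interval of Ptgs2, -1.97 to -0.28, is the only one that leaves out 0, and 8 intervals lie between the dashed lines.

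The terminal synthases differed little. Ptges encodes the inducible microsomal synthase of prostaglandin E2, which is often raised together with COX-2. Its signals ran from 6.69 to 7.02 in WT and from 6.61 to 7.05 in KO arrays, and the difference was -0.08 ± 0.10 (SE; exact permutation p = 0.437, limma adjusted p = 0.932). KO replicates 6 and 10 lay below every WT array and KO replicate 8 above every one. For Ptges2, a further prostaglandin E synthase that is made steadily, the ranges were 6.41 to 7.01 in WT and 6.56 to 6.82 in KO (difference 0.04 ± 0.10). Ptgis encodes prostacyclin synthase of vessels and smooth muscle and had ranges of 5.41 to 5.66 and 5.42 to 5.61 (difference -0.07 ± 0.07). In both genes the KO range lay inside the WT range.

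Hpgd encodes 15-hydroxyprostaglandin dehydrogenase, which starts the breakdown of prostaglandin E2 and is a product of mature colon epithelium. Its signals in WT replicates 1 to 5 were 8.60, 8.27, 8.77, 8.64 and 7.70. In KO replicates 6 to 10 they were 8.36, 8.97, 8.50, 8.59 and 7.59. WT replicate 5 and KO replicate 10 stood below the other 8 arrays, and the genotypes overlapped along the whole range. The means were 8.40 in both genotypes, with a difference of 0.00 ± 0.26 (SE) and a 95% interval of -0.57 to 0.57. With single arrays left out the difference took either sign, from -0.17 without WT replicate 5 to 0.21 without KO replicate 10.

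The level of Hpgd was set against the marker scores from tumour to tumour. After the genotype means were removed, its correlation over 10 arrays with the smooth muscle score was r = 0.94 and rho = 0.90 (exact permutation p = 0.000486 and 0.00563). A score is the mean over a list's markers of the log2 signal less each marker's mean. The correlation with the absorptive colonocyte score was r = 0.90 and rho = 0.88 (exact permutation p = 0.000764 and 0.0016). Without WT replicate 5 and KO replicate 10, the arrays farthest from the median of Hpgd, r was 0.83 and 0.84. In both scores these arrays were the lowest of their genotype. The scores were not tested against each other, so their correlations with Hpgd need not be separate results. Other scores with an unadjusted exact permutation p under 0.05 for r were those of fibroblasts (r = 0.74, rho = 0.68, exact permutation p = 0.0178 and 0.0435), B and plasma cells (r = 0.70, rho = 0.83, p = 0.0308 and 0.00486) and colon epithelium (r = 0.65, rho = 0.50, p = 0.0422 and 0.162). Without the same arrays their r was 0.29, 0.66 and 0.21. None of the 165 correlations between the genes and with 12 marker scores passed adjustment (adjusted exact permutation p of r = 0.063 for smooth muscle and colonocytes and 0.227 or more for the other scores with Hpgd), and this family was chosen after the data were seen. With the smooth muscle score as a covariate, also chosen so, the Hpgd difference was -0.40 ± 0.12 (SE; limma adjusted p = 0.994). The smooth muscle score itself ran from -0.87 to 0.26 in WT and from -0.71 to 0.98 in KO arrays, with 6 of 6 markers measured and above the guide. Its part in the Hpgd values was not tested beyond this fit.

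**Figure D3:**
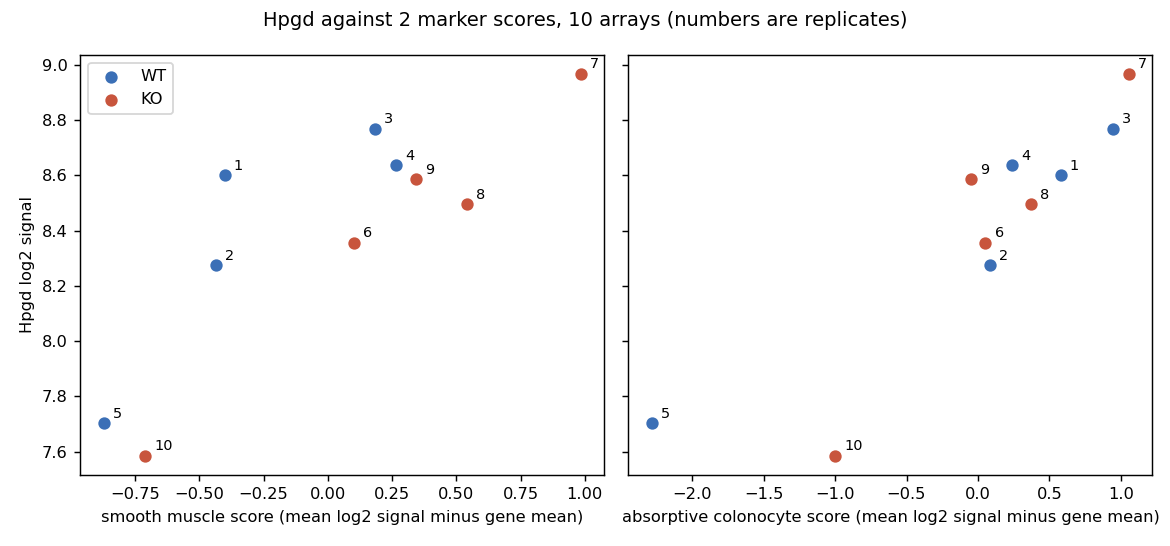
Log2 signal of Hpgd in 10 tumours against the smooth muscle score (left) and the absorptive colonocyte score (right), in log2 units, with WT in blue, KO in red and replicates as numbers. WT replicate 5 and KO replicate 10, at 7.70 and 7.59, are low in Hpgd and in both scores.

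Of the receptors, Ptger4 encodes EP4, which raises cAMP and is a main receptor for prostaglandin E2 on colon epithelium and leukocytes. Its signals were 7.96, 8.03, 8.06, 8.21 and 8.25 in WT and 8.23, 7.97, 8.25, 8.22 and 8.08 in KO arrays. The arrays of both genotypes filled the same narrow range, and the difference was 0.05 ± 0.08 (SE), with a 95% interval of -0.12 to 0.22 (exact permutation p = 0.492, limma adjusted p = 0.948). Ptger2 encodes EP2, which also raises cAMP. It lay under the guide to background in both genotypes (means 4.58 ± 0.21 (SD) and 4.55 ± 0.05), so its difference of -0.03 ± 0.09 (SE) is open to background.

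Ptger3 encodes EP3, which couples to lowering of cAMP and is found in smooth muscle and neurons. Its signals were 5.08, 4.83, 6.33, 5.38 and 4.65 in WT and 5.27, 5.56, 5.91, 5.73 and 4.55 in KO arrays. Those of WT replicates 1, 2 and 5 and KO replicate 10 were below the guide of 5.14. The Ptger3 difference and correlations are therefore open to background. WT replicate 3 was the highest of all arrays and KO replicate 10 the lowest, and the difference was 0.15 ± 0.33 (SE; exact permutation p = 0.69, limma adjusted p = 0.96). Leaving out WT replicate 3 gave 0.42 and leaving out KO replicate 10 gave 0.37. Without WT replicate 2 or 5 it was 0.05 or 0.00, and without KO replicate 8 or 9 it was 0.03 or 0.07. As for Hpgd, WT replicate 5 and KO replicate 10 were the lowest of their genotypes. Ptger3 went most closely with the B and plasma cell score (r = 0.86, rho = 0.88, exact permutation p = 0.00396 and 0.00153, adjusted 0.131 and 0.132), which in WT replicate 3 was also the highest of all arrays, at 1.51. With the smooth muscle score r was 0.80 and rho 0.82 (exact permutation p = 0.00701 and 0.00931, adjusted 0.164 and 0.196). Without WT replicate 3 and KO replicate 10, the arrays farthest from the median of Ptger3, r was 0.65 and 0.71. The part of these cells in the Ptger3 values was not tested. The correlation of Ptger3 with Hpgd was r = 0.78 and rho = 0.73 (exact permutation p = 0.0101 and 0.0263, adjusted 0.164 and 0.271), and r fell to 0.52 without WT replicate 5 and KO replicate 10.

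Markers of other cells were set beside these values, since in a bulk tumour fewer cells of a type and less RNA per cell cannot be told apart. Every KO array (-0.02 to 0.47) had a higher macrophage score than any WT array (-0.33 to -0.04), with a difference of 0.42 and an exact permutation p of 0.00794, or 0.0952 after adjustment over 12 lists. All 8 macrophage markers measured were above the guide and higher in KO at unadjusted limma p under 0.05, and their summed log2 signal was 10.80 to 11.09 in WT and 11.14 to 11.69 in KO. With the macrophage score as a covariate, chosen after the data were seen, the Ptgs2 difference was -1.22 ± 0.73 (SE) and had an unadjusted limma p above 0.05. Because this score separates the genotypes without overlap, the fit can hardly tell the score from the genotype, and its error is wider. The fibroblast score overlapped between genotypes (-0.25 to 0.07 in WT, -0.15 to 0.21 in KO; 10 markers measured, 9 above the guide), and with it as a covariate the Ptgs2 difference was -1.33 ± 0.34 (SE; limma adjusted p = 0.998). The exact permutation p of the other 10 scores lay between 0.0794 and 0.96. The part of these cells in the Ptgs2 values was not tested beyond these fits.

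The variation of Ptgs2 within genotypes ran with a set of named genes. By Pearson correlation of deviations from the genotype mean over 10 arrays, the 6 genes most like it among 1468 eligible genes were Scnn1g, a sodium channel subunit of the distal colon (r = 0.92), and Stc1, the secreted hormone stanniocalcin 1 (0.91). Next came Ccl2, a chemokine for monocytes (0.91), Adamts1, a matrix protease (0.89), Ereg, the EGF receptor ligand epiregulin (0.89), and Fos, a component of AP-1 (0.88). These genes were picked for their likeness, so no test is given. WT replicate 4 and KO replicate 8 were the highest of their genotype in Ptgs2 and in all 6 genes.

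Between genotypes the 6 genes did not all go the way of Ptgs2. The mean of Ereg was 9.57 ± 0.67 (SD) in WT against 8.88 ± 0.52 in KO arrays, and it differed by -0.69 ± 0.33 (SE). The differences of Adamts1 (-0.49 ± 0.23), Stc1 (-0.42 ± 0.23), Fos (-0.40 ± 0.20) and Ccl2 (-0.25 ± 0.24) were also below 0, and that of Scnn1g was 0.19 ± 0.18. None of the 6 passed (limma adjusted p of 0.91 or more).

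**Figure D4:**
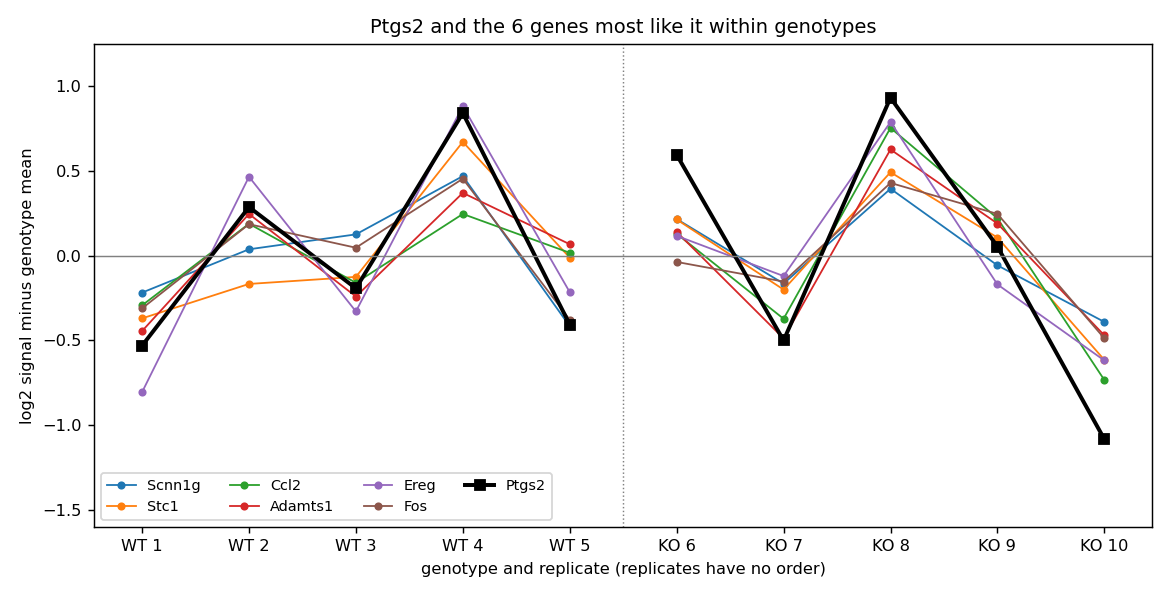
Log2 signal minus the genotype mean for Ptgs2 (black squares) and the 6 genes most like it (coloured points) in each of 10 arrays; lines only join the points of a gene within a genotype. All 7 genes are highest in WT replicate 4 and in KO replicate 8 within their genotype, and KO replicate 10 is the lowest KO array for Ptgs2.

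Among the 21 correlations of Ptgs2 with the other genes and the 12 scores, none passed adjustment. The smallest p was that with Ptger2 (r = 0.68, rho = 0.76, exact permutation p = 0.00333 and 0.00951, adjusted 0.07 and 0.2), and r was 0.63 without WT replicate 4 and KO replicate 10, the arrays farthest from the median of Ptgs2. Ptger2 lay under the guide, as above. With the macrophage score r was 0.05 and rho 0.15 (exact permutation p = 0.91 and 0.718, adjusted 0.91 and 0.898), and r was -0.11 without those 2 arrays. The largest r with a score was that of endothelium, at 0.66 with rho of 0.61 (exact permutation p = 0.0579 and 0.0933, adjusted 0.469 and 0.49), and r was 0.30 without them. With the fibroblast score r was 0.57 and rho 0.50 (exact permutation p = 0.113 and 0.186, adjusted 0.474 and 0.616), and r was 0.25 without them.

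The remaining genes of the pathway were then counted by role, from lists written with earlier results of these data known. Over the 7 lists, 3 of 87 genes (3.45%) were lower and 2 (2.3%) higher in KO at unadjusted limma p under 0.05, near the 2.55% and 2.22% of all genes, so these counts are not a result about the pathway. None of the genes in these lists passed the adjusted threshold (limma adjusted p of 0.91 or more). Counts and the smallest p of a list are by unadjusted limma p, and the exact permutation p printed for a gene is unadjusted too. Of 16 further phospholipase and lipase genes, 9 had differences below 0 and 7 above, 0 had an unadjusted p under 0.05, and the smallest p belonged to Pla2g4c, a membrane-bound relative of Pla2g4a that lay under the guide to background (-0.21 ± 0.11 (SE); exact permutation p = 0.127). Of 7 other synthases, 1 was lower and 1 higher at unadjusted p under 0.05. These were Ptges3, a chaperone partner also called cytosolic prostaglandin E synthase (-0.20 ± 0.08; exact permutation p = 0.0159), and Cbr1, a carbonyl reductase that converts prostaglandin E2 to F2 alpha (0.24 ± 0.11; exact permutation p = 0.0794).

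Ptges3 was close to constant in WT, at 7.44, 7.44, 7.41, 7.44 and 7.54, and stood at 7.21, 7.27, 6.99, 7.37 and 7.42 in KO arrays. KO replicate 10 alone lay within the WT range. Of 7 genes of transport and further breakdown, 0 had an unadjusted p under 0.05, and the smallest p was that of Cbr3, a second carbonyl reductase that also lay under the guide (0.27 ± 0.16 (SE); exact permutation p = 0.183). Of 6 other prostanoid receptors 0 did, with Ptgir, the prostacyclin receptor, first (-0.11 ± 0.06; exact permutation p = 0.0317). Their median differences were -0.11 and -0.06, against -0.02 for all genes.

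The neighbouring branch of arachidonate use, that of leukotrienes and lipoxygenases, had 15 measured genes, of which 10 had differences above 0 and 5 below. Of the 15, 6 lay under the guide to background, and the list median was 0.035, against -0.02 for all genes. Only Cysltr1, a receptor for cysteinyl leukotrienes on macrophages and other leukocytes, had an unadjusted p under 0.05. Its signals were 5.02, 5.30, 5.07, 5.34 and 5.06 in WT and 5.48, 5.66, 6.05, 5.54 and 5.32 in KO arrays. Those of WT replicates 1, 3 and 5 were below the guide of 5.14, so the Cysltr1 difference is open to background. KO replicate 10 alone fell within the WT range, and the difference was 0.45 ± 0.13 (SE; exact permutation p = 0.0159). The macrophage score was also higher in KO, as given above, and its part in the Cysltr1 values was not tested.

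Of 17 known inducers of Ptgs2 and regulators of its mRNA, 8 had differences below 0 and 9 above, with a median of 0.02, and 0 had an unadjusted p under 0.05. The list joins genes that need not act the same way, so this count gives no direction for the inducers alone. Its cytokine genes were below 0, namely Il1a (-0.53 ± 0.28 (SE)), Il1b (-0.37 ± 0.26), Tnf (-0.23 ± 0.17) and Il17a (-0.08 ± 0.10, under the guide). Its receptor genes Il1r1 (0.05 ± 0.14), Tlr4 (0.13 ± 0.21), Egfr (0.14 ± 0.15) and Tnfrsf1a were above 0. The receptor gene Tnfrsf1a had the smallest p (0.26 ± 0.13 (SE); exact permutation p = 0.0873). Of 19 genes known to be induced by cAMP or prostaglandin E2, 16 had differences below 0 and 3 above, with a median of -0.22 against -0.02 for all genes. This list was written knowing that Ptgs2, Il11 and Cxcl1 are lower in these KO tumours, so its direction is no independent support. Those at unadjusted p under 0.05, both lower, were Il11, a cytokine of stromal cells (-0.98 ± 0.26; exact permutation p = 0.00794, the smallest it can give), and Cxcl1, which attracts neutrophils (-0.47 ± 0.14; exact permutation p = 0.0238). In Il11 each KO array (5.55 to 7.18) lay below each WT array (7.20 to 7.74), a pattern seen in 0.506% of all genes, and KO replicate 10 was the lowest in Il11 as in Ptgs2. The count of 2 in this list became 6 when WT replicate 1 or KO replicate 8 was left out and 4 when KO replicate 10 was.

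**Figure D5:**
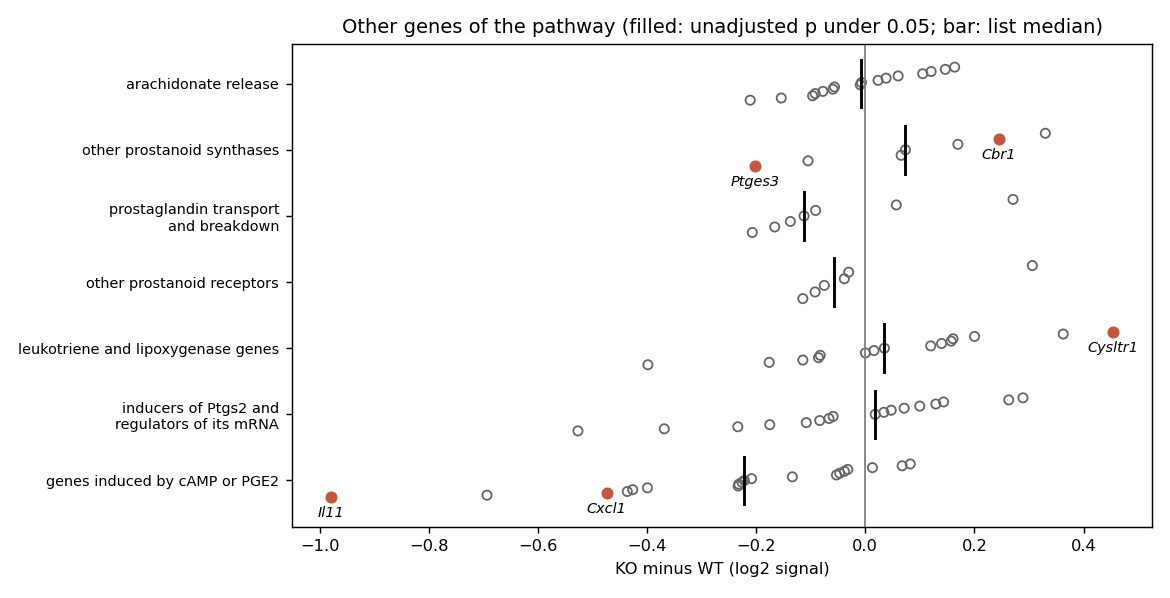
KO minus WT difference of log2 signal for each measured gene of 7 lists around the prostaglandin pathway; filled points have an unadjusted limma p under 0.05 and carry their name, and bars mark the list medians. The medians lie between -0.11 and 0.07 except for the genes induced by cAMP or PGE2, at -0.22.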

How the data were processed

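The deposited values are log2 signals, with 1 value for each probe set in each array. Per the submitters' processing notes they were made with RMA (background correction, equalised arrays, probes summarised) and Partek. Tool versions and genome build were not given in the sources used here. Base 2 was inferred from the range of the logs. A shift of all genes could not be seen after this, and dim genes are open to background because the values carry no detection call. Of 23747 probe sets, the platform annotation named 23111, each for 1 gene, and Ptgs1 was found by its RefSeq gene number, which made 23112 genes tested.

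Deposited values were fitted with lmFit and eBayes of limma 3.58.1 in R 4.3.3 without covariates, and p-values were adjusted over all genes by Benjamini-Hochberg. Tests are two-sided, and differences are KO minus WT with the SE of the fit. Marker scores, and named genes singly, were compared by exact permutation over all 252 assignments of arrays, which cannot give a p below 0.00794, and correlations over 14400 pairings within genotypes. The number of arrays limits the precision. Data were simulated with 200 of 23112 genes, picked at random, changed by 1.25-fold to 4-fold. For the comparison of KO with WT, limma recovered 69.4% of genes at 1.5-fold and 89% at 2-fold. The simulated noise was independent and normal, with each gene's own SD within genotypes. These rates are averages over genes and do not give the rate for a gene as variable as Ptgs2 (SD 0.70, at the 98.3 percentile).

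Named genes are the 10 members, those at unadjusted p under 0.05 in each list (or else the smallest p), and the 6 genes most like Ptgs2, with a mean of at least 6 and an SD of at least 0.3, leaving out predicted, microRNA, receptor-family and antigen-receptor genes. The 10 genes, the lists and the tests were chosen with earlier results of these data known, and the exact test of single genes was added after the data were seen. Of the 636 probe sets that the annotation does not list, those of Ptgs1 and Ucp2 were read by gene number, and the others entered only the fit over all probe sets, unnamed. The alternatives left out arrays or dim genes, normalized again, took all probe sets, changed the variance model or weights, and added marker scores as covariates.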

Additional observations from a re-analysis of the deposited data

Results flagged for a closer look

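In 74 groups of 5 arrays (the named genes and the marker scores, by genotype), 7 held an array far from the other 4, with a gap of more than 0.71 of the range, where chance flags about 1 in 20 groups. Among the prostaglandin genes, Pla2g4a was high in WT replicate 1 (8.99, next 8.74), Ptgs1 was low in WT replicate 1 (5.97, next 6.23) and Ptgis was high in KO replicate 8 (5.61, next 5.45). Among the other genes, Ptges3 was high in WT replicate 5 (7.54, next 7.44), Pla2g4c in KO replicate 9 (5.24, next 4.90) and Cbr3 in KO replicate 8 (5.08, next 4.52), the last 2 in genes under the guide to background. The absorptive colonocyte score was low in WT replicate 5 (-2.28, next 0.0837). Ptgs2 was not among them in either genotype.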

How the results depend on the processing

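Ptgs2 had less signal in KO under all 22 alternatives, from -1.43 to -0.85, and none of the 10 genes passed the adjusted threshold in any of these fits (limma adjusted p of 0.81 or more). At unadjusted p under 0.05 the number of the 10 genes lower in KO was 1, but 0 by the exact permutation test, 0 with the macrophage score and 2 with the smooth muscle score as covariates (Ptgs2 and Hpgd), all 3 chosen after the data were seen. With 1.5-fold or more also required, 1 of the 10 and 107 of all genes were past that unadjusted threshold. Genes called at adjusted p under 0.05 were 0, but 2 without genes under the background guide, 3 over all probe sets, 1 with trend and robust estimation, 1 each with the fibroblast and the epithelium score as covariates, and 0 to 2 with single arrays left out.

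Differences near 0 changed sign. Again quantile normalized values gave Hpgd -0.0232 and Ptger2 0.00764, cyclic loess Ptger2 0.011 and array weights Ptges2 -0.00119. The fibroblast score as covariate gave Hpgd -0.179 and Ptger3 -0.0696, and the epithelium score Hpgd -0.0918. The macrophage score gave Pla2g4a -0.185, Ptgs1 -0.0348, Ptges2 -0.0987 and Hpgd -0.272, and the smooth muscle score Pla2g4a -0.00318, Hpgd -0.398 and Ptger3 -0.285. The cause was not tested.

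With single arrays left out, Hpgd ranged from -0.172 to 0.205, Ptger2 from -0.0800 to 0.0304 and Ptges2 from -0.0243 to 0.127. The absorptive colonocyte score ranged from -0.377 to 0.443, the epithelium score from -0.0119 to 0.083 and the endothelium score from -0.0799 to 0.0875. Of the 87 genes of the 7 lists, 3 lower and 2 higher in KO at unadjusted p under 0.05 became 2 to 9 and 1 to 6, and genes induced by cAMP or PGE2 2 to 6 lower. No paired analysis was possible because the genotypes share no replicate numbers. Signals near the guide of 5.14, such as those of Ptger2 and Ptger3, limit what can be read from them.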
